A study of Mus musculus with 6 samples.

Results

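The platelet integrins and the proteins that switch them on from inside the cell were followed through 10 genes: the integrin subunit genes Itga2b, Itgb3, Itga2, Itga6 and Itgb1, the adaptor genes Fermt3 and Tln1 that bind integrin tails, and the Rap1 module of Rasgrp2, Rap1a and Rap1b. Members were taken by name, through the RefSeq accession that the array design gives each probe. The list of names was chosen with earlier results of these data known. On the arrays 14 of 41174 non-control probes carried one of these genes. Of the 10 genes, 9 passed the filter on dim probes and were tested among 18210 genes.

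The samples were primary megakaryocytes, the platelet-forming cells of the blood, grown in culture from livers of C57BL/6 mouse embryos at E13.5. In the 3 p45-/- samples the Nfe2 product p45 was missing, which with a small Maf partner makes up NF-E2, a factor that megakaryocytes need to release platelets. The 3 WT samples were wild type, and no further allele or treatment is named for either group. The labels say nothing of how the allele was made, of pooling of embryos or of the purity of the cultures, and the extraction protocol speaks of whole embryos where the source field gives cultured megakaryocytes. Each sample was hybridised in 1 colour to an Agilent array, and the study's question is which transcripts differ when p45 is missing. The series' design calls the samples of a group independent experiments, and no label says whether different litters were used.

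Integrins are paired alpha and beta receptors that sit on resting platelets in a bent, low-affinity state. In inside-out activation, calcium raised by agonist receptors turns on CalDAG-GEFI, the product of Rasgrp2, which loads the small GTPases Rap1A and Rap1B with GTP. Active Rap1 brings talin to the beta subunit's cytoplasmic tail, and talin together with kindlin-3, the product of Fermt3, opens the receptor for fibrinogen or matrix.

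A level below is the log2 of the processed signal relative to the 75th percentile of its array, so that 0 is the signal that 3 in 4 probes stay under. The 75th percentile itself lay between 135 and 589 over the arrays, lowest on p45-/- array 1, and 57.8% to 64.8% of the probes were well above background. That array correlated with the others at 0.782 to 0.884 across genes, against 0.941 to 0.984 among the other arrays. Of 18 megakaryocyte markers, 17 were on the array and all 17 passed the filter, with a summed linear level of 843 to 1897 times the 75th percentile in p45-/- and 1055 to 2019 in WT. Their median difference was -0.58, which includes P2ry12, kept by the filter through the WT group alone. By the adjusted limma test 0 of the 17 were called. With the replicate block 2 were called, beside 5 genes or 0.0275% of all 18210. These were the collagen receptor gene Gp6, with a difference of -6.09 (blocked limma adjusted p = 0.017), and the podoplanin receptor gene Clec1b, with -4.53 (blocked limma adjusted p = 0.045), both named after their values were seen. In the same arrays 12 of 14 tested erythroid markers had a higher mean in p45-/- with a median of 1.78, and their summed level was 458 to 2196 in p45-/- and 375 to 843 in WT. Epb42, Ermap and Rhag were well above background on only 2 WT arrays and passed the filter through the p45-/- group alone. These genes are therefore no support for the count of 12 or for that median. All 10 neutrophil and granulocyte markers had a lower mean, with a median of -0.79 and sums of 539 to 1045 against 703 to 1274. In bulk RNA a change in the share of a cell type and a change of RNA per cell cannot be told apart, and the part of these shifts in the results below was not tested.

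No member passed the test. Among the 9 tested members the largest differences were those of Rasgrp2 and Tln1, whose mean levels were 2.52-fold and 2.26-fold lower in p45-/-. Both subunits of the fibrinogen receptor differed by less than the SD between arrays of either group, and so did Itga6, Itgb1, Fermt3 and Rap1a. All 9 tested members had a lower mean in p45-/-, with a median log2 difference of -0.45 against -0.048 for all genes tested. A lower mean was found for 53.5% of all genes. That share covers genes of all levels, and none was computed for genes as bright as the members. The all-gene median moved with the filter, to 0.30 without it and to -0.094 with the filter on all 6 arrays. The count of 9 was 7 with quantile normalization, where Itga2b and Fermt3 turned, and 6 without p45-/- array 1, where Rap1a turned too and the median was -0.050. With limma's moderated test and Benjamini-Hochberg adjustment over all genes, 0 of the 9 members and 0% of all genes were called at an adjusted p under 0.05. At an unadjusted p under 0.05, 0 members and 3.33% of all genes were lower.

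**Figure D1:**
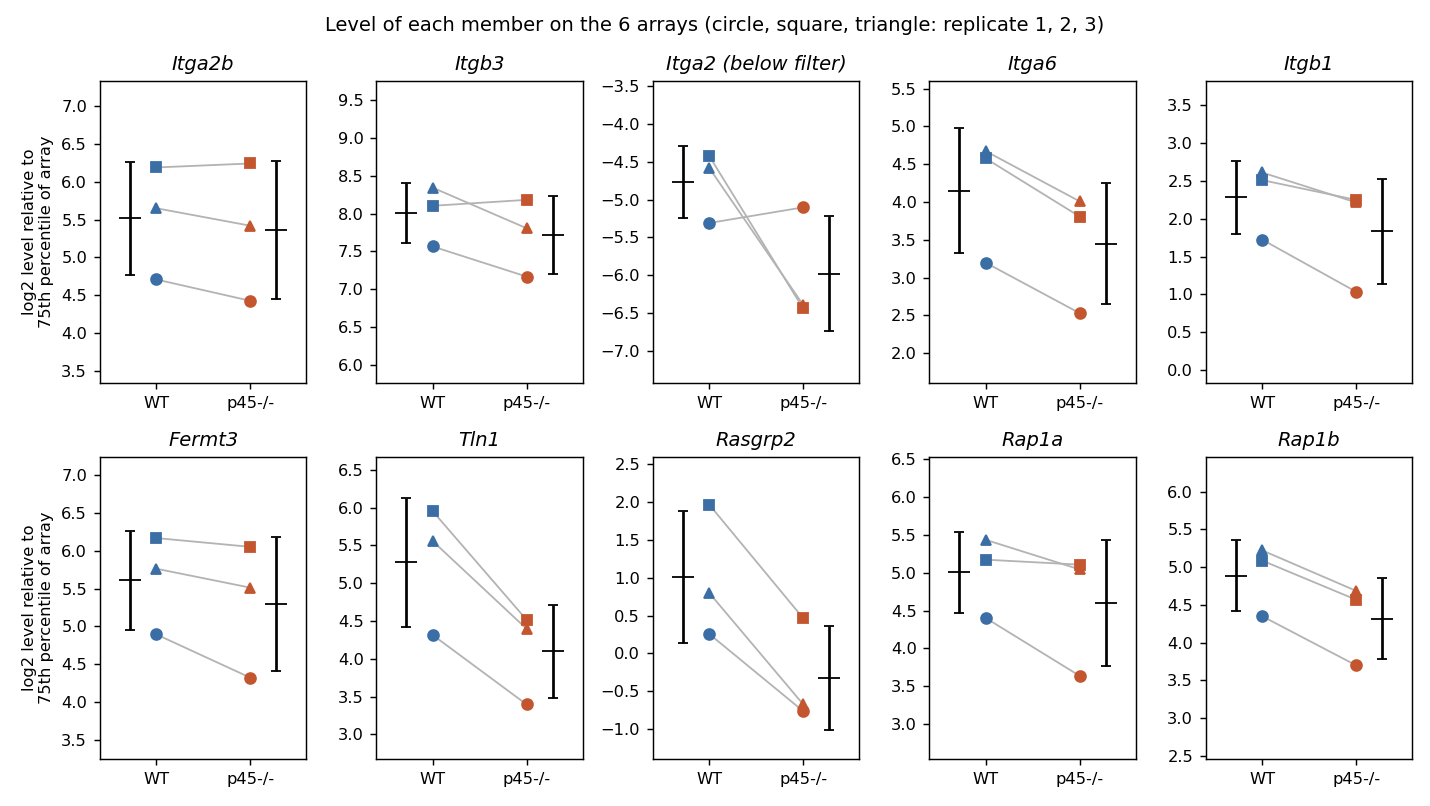
Level of each of the 10 members on every array, as log2 of the signal relative to the array's 75th percentile (vertical axes differ in position and span the same 4 log2 units). Circles, squares and triangles are replicates 1, 2 and 3, grey lines join same-numbered arrays, and bars give the mean and SD of 3 arrays. The lines of Tln1 and Rasgrp2 all descend, by 0.92 or more, and those of Itga2b lie nearly flat.

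Itga2b encodes the alpha IIb subunit (CD41), which marks the megakaryocyte lineage. In order of replicate number its level was 4.43, 6.24 and 5.42 in p45-/- and 4.71, 6.19 and 5.65 in WT. The groups overlapped almost wholly, and array 1 was the lowest of each group. p45-/- minus WT came to -0.15 (SE 0.59, 95% interval -1.56 to 1.25, limma adjusted p = 0.934). Its sign turned with quantile normalization, to 0.19, and without p45-/- array 1, to 0.31. Itgb3 encodes its partner, the beta 3 subunit that carries the talin and kindlin sites. It was read at 7.17, 8.18 and 7.81 in p45-/- and at 7.57, 8.10 and 8.34 in WT, again with overlapping groups. Here p45-/- minus WT came to -0.29 (SE 0.39, 95% interval -1.21 to 0.64, limma adjusted p = 0.804). It was -0.0098 without p45-/- array 1, -0.12 without WT array 3, and -0.52 and -0.51 without p45-/- array 2 or WT array 1. Both subunits were slightly higher in p45-/- in the replicate 2 pair, by 0.053 and 0.079, and lower in the other pairs.

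Itga2 encodes the alpha 2 subunit of the collagen receptor and was the only member not tested. Its brighter probe was well above background on WT arrays 2 and 3 and on 0 of the 3 p45-/- arrays. The processed signal was 3.94, 4.69 and 7.01 in p45-/- and 8.54, 27.2 and 24.0 in WT, all close to the background. On the scaled axis the levels were -5.10, -6.44 and -6.39 in p45-/- and -5.31, -4.42 and -4.58 in WT, so that the groups overlapped through the arrays of replicate 1. Against the lowest signal that counted as well above background on each array, the mean of all 3 WT arrays was at least 1.26-fold higher. Only 2 of those 3 arrays measured it, and the mean includes the reading of WT array 1, which was not well above background. Its adjusted p was 0.841 in the limma fit without the filter. The second Itga2 probe stayed dim on all 6 arrays and never counted as well above background.

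Itgb1 encodes the beta 1 subunit that pairs with both alpha 2 and alpha 6. Its main probe was printed in several spots per array, of which 6 to 10 were usable, and these spots varied by 1.64% to 2.53% (coefficient of variation) within an array. The levels were 1.03, 2.25 and 2.22 in p45-/- and 1.72, 2.51 and 2.61 in WT. The SD between arrays of a group, 0.69 and 0.49, was far above the SD between spots of 0.024 to 0.037 on the same log2 scale. Its difference was -0.45 (SE 0.46, limma adjusted p = 0.75), and a second Itgb1 probe gave -0.57. It was -0.050 without p45-/- array 1, -0.28 without WT array 3 and -0.73 without WT array 1. Itga6 encodes the alpha 6 subunit of the laminin receptor. It stood at 2.53, 3.81 and 4.01 in p45-/- and at 3.20, 4.58 and 4.67 in WT, overlapping because WT array 1 was below p45-/- arrays 2 and 3. The group difference was -0.70 (SE 0.58, limma adjusted p = 0.720), and the 3 same-numbered pairs gave -0.67, -0.77 and -0.66. The group difference was -0.24 without p45-/- array 1, -0.44 without WT array 3 and -1.18 without WT array 1. The 3 pair differences had an SD of 0.060, while the levels within a group had an SD of 0.80 to 0.83. These pairs were inferred from the same data, in which array 1 of each group read low for Itga6. The small SD is therefore no separate support.

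Kindlin-3 is needed by all platelet integrins. Its gene Fermt3 was read at 4.32, 6.05 and 5.51 in p45-/- and at 4.89, 6.17 and 5.76 in WT. The groups overlapped, and the difference was -0.31 (SE 0.56, limma adjusted p = 0.854), which became 0.038 with quantile normalization and 0.17 without p45-/- array 1. Over the 6 arrays Fermt3 followed Itga2b closely: after each gene was centred on its own mean the 2 profiles differed by 0.118 log2 units on average, which ranked Fermt3 9 among the 18209 other genes by likeness to Itga2b. The named genes most like Itga2b were Capn5 (0.067), Tbcd (0.074) and Kctd10 (0.087). For Itgb3 they were Nab1 (0.065), Usp9x (0.072) and Dlgap4 (0.074), and the nearest member was Itgb1 at 0.165. Itga2b and Itgb3 differed from each other by 0.342. These profiles hold the offset of array 1 in both groups, and the measure is a description over 6 arrays.

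Tln1 encodes talin-1, the adaptor that makes the last step of inside-out activation by binding the beta tail. Its brightest probe stood at 3.40, 4.52 and 4.40 in p45-/- and at 4.32, 5.95 and 5.56 in WT. WT array 1 lay among the p45-/- values, and WT arrays 2 and 3 lay above all of them. p45-/- was lower by a difference of -1.17 (SE 0.54, limma adjusted p = 0.704), with a 95% interval of -2.46 to 0.11. An exact two-sided permutation test gave p = 0.3, where 3 arrays against 3 cannot go below 0.1. Every same-numbered pair was lower in p45-/-, by -0.92, -1.44 and -1.16. The other Tln1 probes gave group differences of -0.93 and -1.15, were lower in all 3 pairs as well, and had the same adjusted p of 0.709 as the brightest in the limma fit over all probes.

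Rasgrp2 encodes CalDAG-GEFI, the exchange factor that carries the calcium signal to Rap1. Its levels were -0.76, 0.47 and -0.67 in p45-/- and 0.26, 1.97 and 0.80 in WT. Here p45-/- array 2 was above WT array 1, and p45-/- arrays 1 and 3 were below every WT array. p45-/- minus WT was -1.33 (SE 0.56, limma adjusted p = 0.704), with a 95% interval of -2.68 to 0.0097 and an exact two-sided permutation p of 0.2. The pairs gave -1.02, -1.50 and -1.47. Without WT array 2 the difference was -0.85. A mean at least 2-fold lower in p45-/-, as for Rasgrp2 and Tln1, was found for 3.68% of all genes. A 2-fold lower level in at least 2 pairs with all 3 pairs lower was found for the same 2 members and for 3.21% of all genes. On slide 2, which held replicates 1 and 2 of both groups, the differences were -1.26 for Rasgrp2 and -1.18 for Tln1, and on slide 1, with 1 array per group and no test, -1.47 and -1.16.

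The Rap1 genes themselves moved less. Rap1b encodes the Rap1 form that is most abundant in platelets, and its level was 3.70, 4.57 and 4.69 in p45-/- and 4.35, 5.09 and 5.22 in WT. Its difference was -0.57 (SE 0.41, limma adjusted p = 0.704), with -0.65, -0.52 and -0.54 in the pairs. Without p45-/- array 1 the Rap1b difference was -0.26. Rap1a, its close relative, was read at 3.64, 5.11 and 5.04 in p45-/- and at 4.40, 5.17 and 5.44 in WT, a difference of -0.41 (SE 0.51, limma adjusted p = 0.792). Without p45-/- array 1 the Rap1a difference was 0.072. The groups of both genes overlapped through WT array 1, which read lower than p45-/- arrays 2 and 3. Whether either probe also binds the other Rap1 transcript was not tested.

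The arrays of replicate 1 read low for these genes in both groups. On p45-/- array 1 all 9 tested members were below the mean of the other p45-/- arrays, by a median of -1.20 where all genes tested had -0.36. On WT array 1 all 9 were below the other WT arrays, by a median of -1.07 where all genes had 0.089. For 0 of the 9 members did every p45-/- array lie below every WT array, which 8.43% of all genes showed. The same-numbered pairs were inferred from these same data, as no label gives them. In pairs, 7 of the 9 members were lower in p45-/- in all 3, the exceptions being Itga2b and Itgb3, beside 23.6% of all genes. With the replicate number as a block in the limma fit, 0 members passed the adjusted test and 5 genes in all, 0.0275%. At an unadjusted p under 0.05 the blocked limma fit had 3 of 9 members lower, beside 5.96% of all genes. They were Rasgrp2 (limma adjusted p = 0.122), Tln1 (limma adjusted p = 0.131) and Itga6 (limma adjusted p = 0.234). Without replicate 1 of both groups 0 members and 0.0988% of all genes were called.

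**Figure D2:**
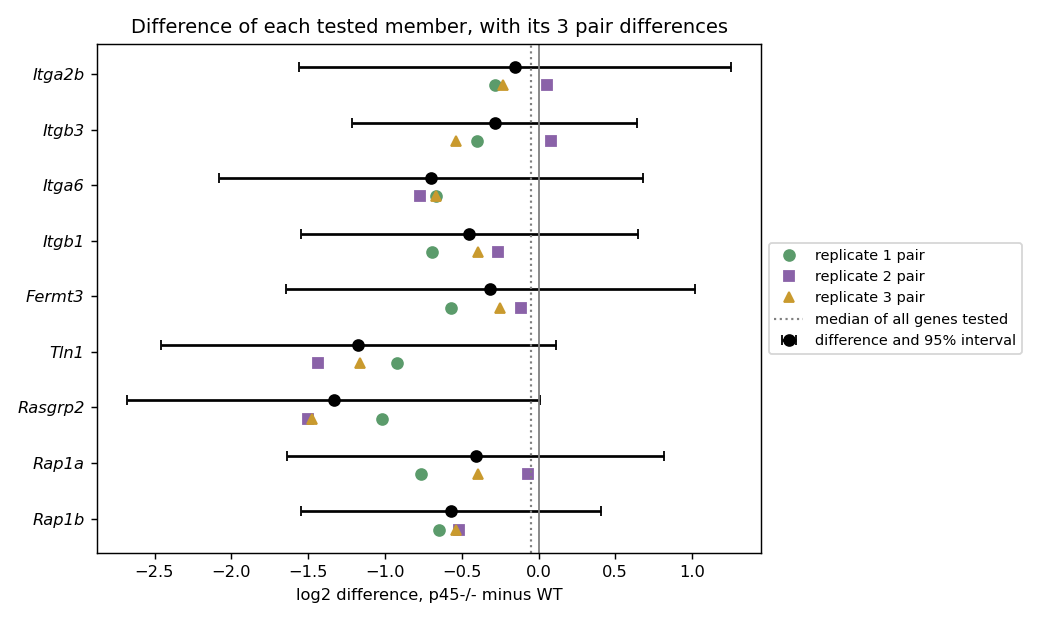
Log2 difference of p45-/- minus WT for the 9 tested members, with the 95% interval of the limma fit without the block (black), and the difference within each same-numbered pair (coloured symbols). The dotted line is the median of all genes tested, at -0.048. All intervals include 0, and the 3 pairs of Tln1 and Rasgrp2 all lie at or below -0.92.

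Because a common offset of an array cancels when members are set against each other on the same array, each of the other 7 members was also expressed relative to the mean of Itga2b and Itgb3. This measure was chosen after the values were seen. Its reference genes had the smallest differences of the tested members, -0.15 for Itga2b and -0.29 for Itgb3. The values below therefore describe how the members moved against each other on these arrays. They are no independent test of unequal change and cannot tell which gene changed. The distance between 2 probes has no meaning of its own, and only its shift between groups was compared. Relative to the receptor subunits Tln1 stood at -2.40, -2.70 and -2.22 in p45-/- and at -1.82, -1.19 and -1.44 in WT. No p45-/- value reached a WT value, and the difference was -0.95, or 1.94-fold, with an exact two-sided permutation p of 0.1, the smallest possible. Rasgrp2 stood at -6.56, -6.75 and -7.29 in p45-/- and at -5.88, -5.18 and -6.20 in WT. These groups did not overlap either, with a difference of -1.11, or 2.16-fold, and an exact permutation p of 0.1. With normexp background correction the Rasgrp2 difference was -0.60 and its groups overlapped, while those of Tln1 stayed apart. Among all genes 3.28% were lower relative to these subunits without overlap, and 2 of the 7 members were. The remaining 5 overlapped, with differences of -0.48 for Itga6, -0.35 for Rap1b, -0.23 for Itgb1, -0.19 for Rap1a and -0.094 for Fermt3.

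**Figure D3:**
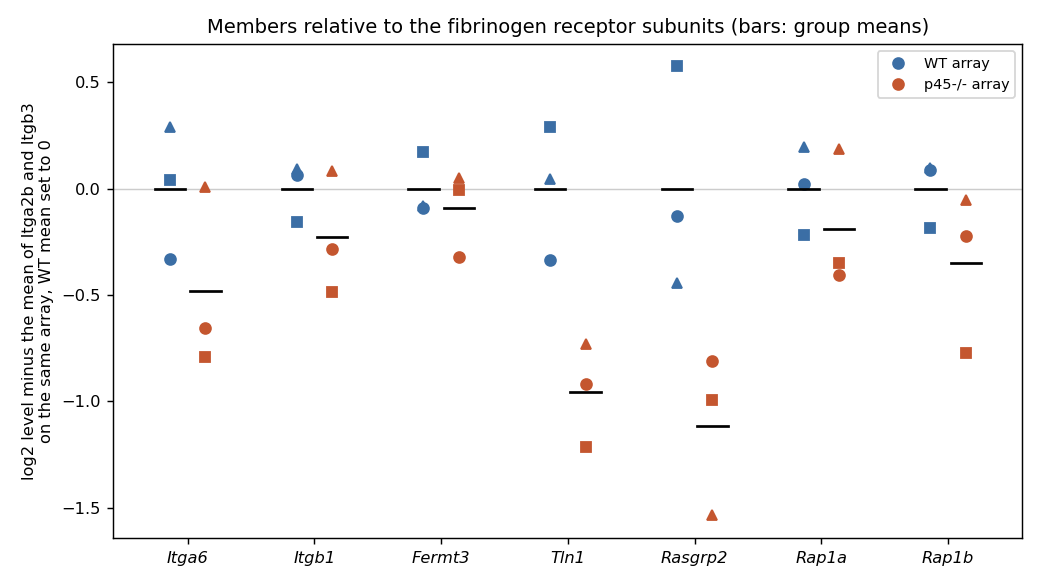
Level of 7 members minus the mean level of Itga2b and Itgb3 on the same array, in log2 units, with the WT mean of each gene set to 0. Each symbol is an array (circle, square and triangle for replicates 1, 2 and 3) and short bars are group means. For Tln1 and Rasgrp2 the 3 p45-/- arrays lie below all WT arrays, and for the other 5 genes the groups overlap.

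The start-site windows of the 2 tested members with the largest differences are shown beside that of Itga2b, which had the smallest of the tested members, so that the letters around the starts can be compared. RefSeq (GRCm38.p6) held a window from 250 bases before to 50 after the start for 7 of the 10 members, 8 windows in all. Capitals mark only CGGAAG or its complement CTTCCG, a form of the GGAA core of many ETS family sites. Other forms were not searched or marked, and the Itga2b window holds GGAA after other letters.
Itga2b, chr11:102469834-102470133, minus strand: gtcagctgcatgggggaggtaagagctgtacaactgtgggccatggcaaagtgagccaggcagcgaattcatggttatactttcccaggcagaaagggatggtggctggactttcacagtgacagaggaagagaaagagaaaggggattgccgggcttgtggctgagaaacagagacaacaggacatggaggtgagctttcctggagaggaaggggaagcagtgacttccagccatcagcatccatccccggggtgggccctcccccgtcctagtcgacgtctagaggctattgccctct
Tln1, chr4:43562534-43562833, minus strand: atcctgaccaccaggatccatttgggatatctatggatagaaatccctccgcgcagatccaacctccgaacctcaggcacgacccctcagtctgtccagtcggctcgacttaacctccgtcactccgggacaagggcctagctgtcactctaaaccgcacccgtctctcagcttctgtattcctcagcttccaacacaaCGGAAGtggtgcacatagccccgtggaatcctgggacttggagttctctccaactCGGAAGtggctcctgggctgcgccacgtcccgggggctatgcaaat
Rasgrp2, upstream start, chr19:6399625-6399924, plus strand: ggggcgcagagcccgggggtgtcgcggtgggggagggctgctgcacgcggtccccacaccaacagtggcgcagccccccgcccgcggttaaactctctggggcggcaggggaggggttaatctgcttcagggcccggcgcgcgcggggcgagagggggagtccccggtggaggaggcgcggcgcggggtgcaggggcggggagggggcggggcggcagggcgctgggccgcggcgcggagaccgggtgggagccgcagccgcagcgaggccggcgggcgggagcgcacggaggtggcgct
Rasgrp2, downstream start, chr19:6401455-6401754, plus strand: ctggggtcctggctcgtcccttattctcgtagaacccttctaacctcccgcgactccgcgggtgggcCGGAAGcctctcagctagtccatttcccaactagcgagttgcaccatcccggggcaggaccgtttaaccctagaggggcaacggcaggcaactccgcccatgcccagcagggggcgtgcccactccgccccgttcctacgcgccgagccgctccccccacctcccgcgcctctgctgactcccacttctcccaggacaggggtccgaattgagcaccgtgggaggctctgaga
Both strands were searched for 3 motifs that do not contain each other. The letters TGANTCA, which NF-E2 and AP-1 sites have in common, were in 0 of the 8 windows and in 7.81% of 32851 windows of the same length over all genes. The GATA letters AGATAA were in 0 of the 8 windows and in 11.2% of all. CGGAAG was in 3 of the 8 windows and in 16.9% of all. It occurred in Tln1 at 51 bases before the start and again 4 bases after it, in the downstream Rasgrp2 window 183 bases before, and in Rap1b 68 bases before. Such matches describe the letters of these windows and say nothing of binding.

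The other regulators of integrin activation include GTPase switches, scaffolds and kinases, and were listed with earlier results of these data known. Of these, 23 of 30 tested genes had a lower mean in p45-/-, with a median of -0.46, beside 53.5% of all genes. Itgb1bp1, lower in p45-/-, passed the filter through WT alone and is no support for that count. By limma's adjusted test 0 of the 30 were called. At an unadjusted p under 0.05, 3 were lower and 0 higher, beside 3.33% of all genes lower (606 of 18210) and 477 higher. The pair with the smallest p were Skap1 and Fyb, which encode an adaptor and its partner ADAP that link agonist signals to integrins. Skap1 differed by -1.17 (SE 0.31, limma adjusted p = 0.576) and Fyb by -1.29 (SE 0.40, limma adjusted p = 0.679). Genes for proteins that switch Rap1 off, and so oppose CalDAG-GEFI, had differences of both signs, and are given here with their values already known, not by the naming rule. Rap1gap2 had a difference of -1.23 (SE 0.41), Rasa3 of -1.05 (SE 0.67), Sipa1l1 of -0.70 (SE 0.32) and Sipa1 of -0.46 (SE 0.31), each lower in all 3 pairs. Rap1gap had a difference of 0.70 (SE 0.41) and was higher in all 3 pairs.

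Downstream of ligand-bound integrins, 24 of 27 tested genes of outside-in signalling had a lower mean, with a median of -0.70, beside 53.5% of all genes with a lower mean, and 0 were called. At an unadjusted p under 0.05, 8 of the 27 were lower and 0 higher, beside 3.33% of all genes lower (606 of 18210) and 477 higher. Ptpn1, which encodes the phosphatase PTP1B that acts on Src, differed by -0.95 (SE 0.28, limma adjusted p = 0.657), with -1.04, -0.97 and -0.85 in the pairs. Rac2, a small GTPase of blood cells, differed by -0.84 (SE 0.28, limma adjusted p = 0.704). The median of this list was -0.96, -0.44 and -0.53 in the pairs of replicates 1, 2 and 3, and that of the 30 regulators -0.81, -0.17 and -0.24. All genes tested had pair medians of -0.37, 0.12 and 0.064, so both lists lay below them in each pair.

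Integrin subunits outside the member list went both ways. Of 12 other alpha subunits tested, 5 had a lower and 7 a higher mean, with a median of 0.37. Itga7, higher in p45-/-, passed the filter through p45-/- alone, and Itga1, lower there, through WT alone. Neither is support for these counts. Itga11, a collagen-binding subunit of fibroblasts, differed by 1.46 (SE 0.33, limma adjusted p = 0.468), and Itgal, the leukocyte subunit of LFA-1, by -0.89 (SE 0.37, limma adjusted p = 0.704). Of 5 other beta subunits tested, 4 had a lower mean. Itgb6, an epithelial subunit, was well above background on all 3 WT arrays and on 0 of the p45-/- arrays, and was at least 1.86-fold lower there (limma adjusted p = 0.413). It passed the filter through the WT group alone, so that p rests on p45-/- readings near background and the gene is no support for the count of 4. Its measured mean level was -7.05 in p45-/- and -4.21 in WT. Itgb7, another leukocyte subunit, differed by -1.10 (SE 0.37, limma adjusted p = 0.704). In these 2 lists 0 genes were called.

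For the ligands, 8 of 11 tested genes had a higher mean in p45-/- with a median of 0.65, and 0 were called. The 3 lower ones were Vwf (-0.37), Thbs1 (-0.91) and Lama5 (-0.52), each lower in all 3 pairs. Vwf and Thbs1 had the highest levels of the list in both groups. The summed level of the list did not rise, at 76.3 to 217 in p45-/- and 125 to 273 in WT. Vtn, which encodes vitronectin, differed by 1.54 (SE 0.49, limma adjusted p = 0.698) and was higher in all 3 pairs. Fn1, which encodes fibronectin, differed by 1.04 (SE 0.46, limma adjusted p = 0.704), with -0.14, 1.05 and 2.21 in the pairs. Over the list the pair medians were -0.83, 1.05 and 1.68. The 9 tested hepatoblast and hepatocyte markers, which include Fgb of the same list, had pair medians of -0.17, 1.34 and 1.87, and the 10 stromal markers, which share Col1a1 and Col1a2 with it, -0.80, 1.07 and 1.39. Hepatocyte markers summed to 53.2 to 184 in p45-/- and 42.4 to 72.5 in WT, and stromal markers to 27.8 to 54.8 and 47.4 to 54.1, each with all of its markers on the array above background on at least 1 array. The part of these cells in the ligand values was not tested.

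**Figure D4:**
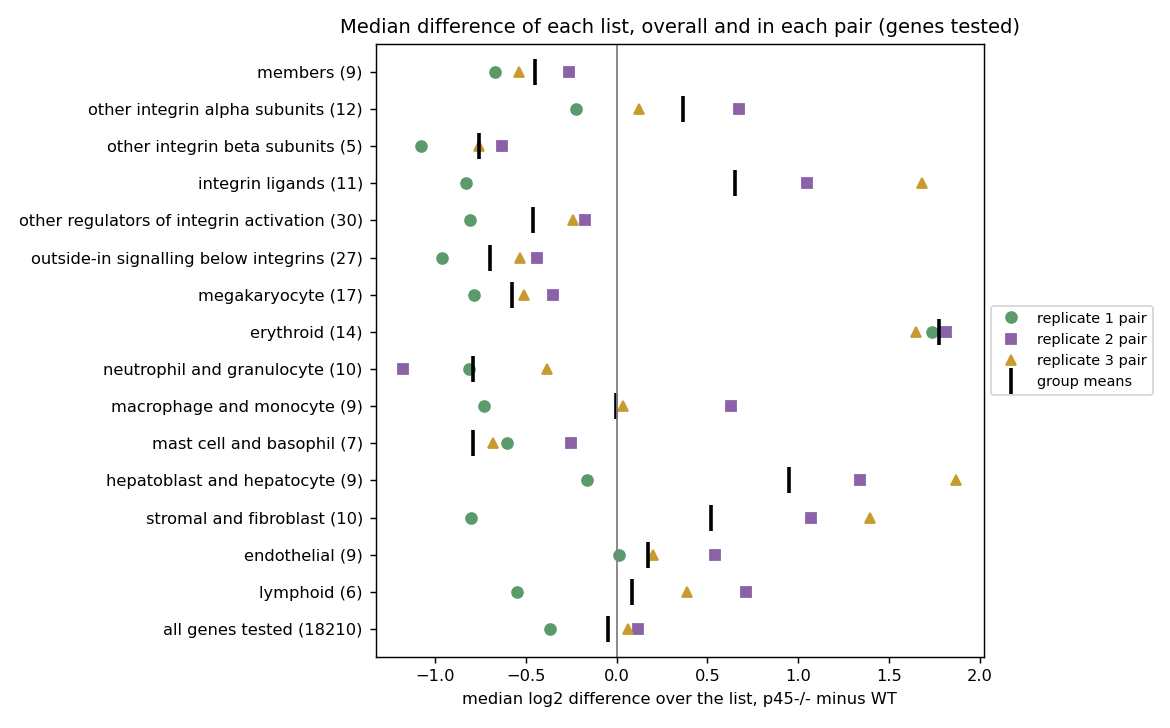
Median log2 difference of p45-/- minus WT over the tested genes of each list (number in brackets), from the group means (black bars) and within each same-numbered pair (coloured symbols). The 9 members lie at -0.67, -0.26 and -0.54 in the 3 pairs, while the integrin ligands run from -0.83 to 1.68 and the erythroid markers lie above 1.6 in every pair. Of the erythroid markers, Epb42, Ermap and Rhag passed the filter through p45-/- alone.

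**Figure D5:**
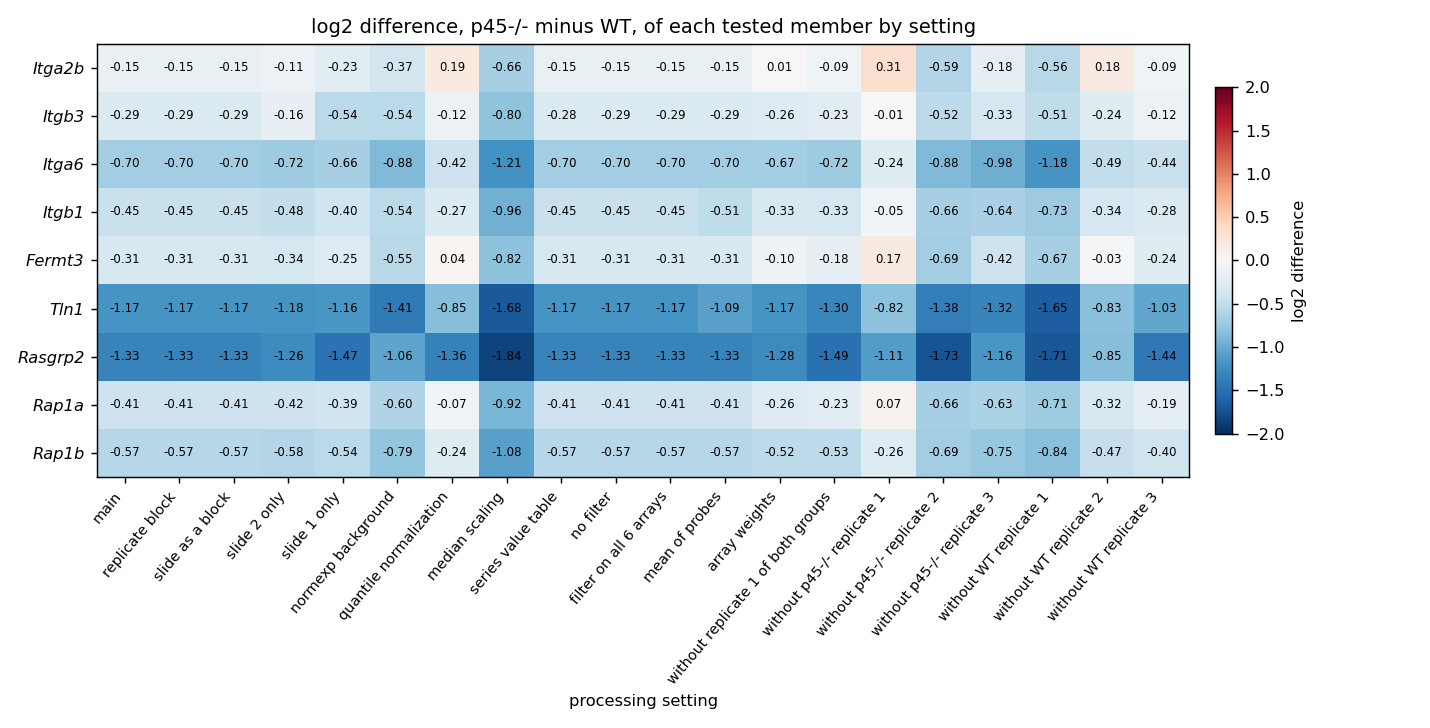
Log2 difference of p45-/- minus WT for each tested member (rows) under the main processing and 19 alternatives (columns), blue for lower and red for higher in p45-/-. Tln1 and Rasgrp2 are at -0.82 or lower in every column, Itga2b turns positive in 4, Fermt3 in 2 and Rap1a in 1.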

How the data were processed

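Scans were read with Agilent Feature Extraction, version 10.7.3.1 per the file headers and 10.1 per the submitters' processing notes. The deposited processed signal is a linear 1-colour (Cy3) intensity with a spatial detrending fit recorded per the file headers, and arrays were not scaled to each other. The deposited series value table held the same intensities within 0.497%, with column medians of 22.6 to 46.3.

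Control spots were left out, 32 to 80 spots per array marked as non-uniform or population outliers were set to missing, log2 intensities of spots of a probe were averaged, and each array's 75th percentile was subtracted. No spot was saturated. A probe was kept if every array of 1 group or of both read it well above background (23957 of 41174 probes). Accessions were matched without versions to RefSeq names of GRCm38.p6 (26682 probes named), and the probe with the highest mean stood for a gene. Where no array of a group read a gene well above background, a fold is a bound against the lowest signal that did. The test was two-sided in limma 3.58.1 (lmFit, eBayes; R 4.3.3), and p-values of 18210 genes were adjusted after Benjamini and Hochberg, with a threshold of 0.05 and 4 residual degrees of freedom. The script was tested on simulated data. With 3 arrays a group, their number limits precision, and p-values measure the spread between these samples.

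Deviations from group means correlated at 0.65, 0.59 and 0.27 for arrays numbered 1, 2 and 3. Each was above the limit of 0.1, so same-numbered samples were treated as pairs. No label gives this pairing, and it rests on the same values that the pair counts and the blocked fit then use. Deviations of arrays from their own group mean are tied to each other. A low array 1 in both groups can therefore also raise the correlations among arrays 2 and 3. The third p45-/- array correlated more with WT array 2, at 0.62. Slide 1 held replicate 3 of both groups and slide 2 the others, each with its own scan.

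The members and lists were chosen with earlier results of these data known. Named are all members, of each other pathway list the called genes or the 2 with the smallest unadjusted p (marker lists are given as lists), and for Itga2b and Itgb3 the 3 named genes with the most similar centred profile. Median spot signals were used for normexp because the files read here carry no mean signal column.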

Additional observations from a re-analysis of the deposited data

How the results depend on the processing

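The call of 0 members held in every tested alternative: replicate or slide as a block, slide 2 alone, normexp with offset 50, quantile or median scaling, the series value table, both other filters, the mean of probes, array weights, replicate 1 of both groups left out, and each replicate left out in turn. In the fit over all probes 0 of 12 member probes passed, with and without the block. The count of all genes called moved from 0 to 5 with the replicate block, 10 with median scaling, 455 with array weights (0.103 for p45-/- array 1) and 18 without replicate 1 of both groups, and lay between 0 and 1 when a single replicate was left out, the 1 without WT replicate 1. At an unadjusted p under 0.05, 1083 genes passed in the main processing. The replicate block changed no call of a member.

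Over 19 alternatives for each of the 9 tested members, 7 differences turned sign. Itga2b turned to 0.19 (quantile), 0.013 (array weights), 0.31 (without p45-/- replicate 1) and 0.18 (without WT replicate 2). Fermt3 turned to 0.038 (quantile) and 0.17 (without p45-/- replicate 1), and Rap1a to 0.072 (without p45-/- replicate 1). The cause was not tested. With single replicates left out Itgb3 ran from -0.52 to -0.0098, Itgb1 from -0.73 to -0.050, Itga6 from -1.18 to -0.24, Rap1b from -0.84 to -0.26, Itga2b from -0.59 to 0.31, Fermt3 from -0.69 to 0.17 and Rap1a from -0.71 to 0.072. The member median ranged from -0.73 without WT replicate 1 to -0.050 without p45-/- replicate 1, and was -0.96 with median scaling, where all genes had -0.56. Tln1 lay between -1.68 and -0.82 and Rasgrp2 between -1.84 and -0.85 over all alternatives, with adjusted p of 0.093 to 0.998 and 0.122 to 0.998. Relative to the receptor subunits Tln1 lay between -1.12 and -0.81 when a replicate was left out and Rasgrp2 between -1.34 and -0.83, alternatives chosen after seeing the data. Itga2 is limited by signal close to background.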
